A study of Mus musculus with 6 samples.

Results

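Excitatory neuron 1 is the largest excitatory cluster in the authors' annotation of single-nucleus RNA from the mouse hippocampus, and its genes are those of CA1-like pyramidal neurons. Its members are the 2784 nuclei that the deposited annotation assigns to this cluster, of 28650 nuclei in all and of 12428 excitatory neuron nuclei. The nuclei came from microdissected hippocampi of male PS19 mice (genotype Tau P301S), which carry a human tau transgene with a disease mutation. All groups, controls included, carried this transgene, so no comparison here is with a mouse free of it. The transgene is driven by the mouse prion promoter, which is active in neurons in general.

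There were 6 libraries, each a different combination. Sham mice gave a right hippocampus with AAV-GFP and one with AAV-VEGFC. TBI mice gave a right and a left hippocampus for either vector. TBI is a controlled cortical impact, a mild injury made over the right hemisphere, so the left hippocampus lay opposite the impact and no sham left library was analysed here. AAV-GFP is an adeno-associated virus coding for a fluorescent protein and served as the vector control. AAV-VEGFC codes for a growth factor of lymphatic vessels. Neither the age of the mice nor the number pooled for a library is in the labels, and it is not stated if both sides were taken from one animal. Each combination had a single library. The p-values of the gene tests below rest on how far the VEGFC to GFP difference varied between contexts (sham right, TBI right, TBI left). They also draw on the spread of other genes. They measure no spread between replicate libraries or mice, and the variation they use may be technical.

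CA1 pyramidal neurons are the last relay of the main hippocampal circuit. Granule cells of the dentate gyrus excite CA3 pyramidal neurons, these excite CA1 through the Schaffer collaterals, and CA1 sends its axons to the subiculum and the deep entorhinal cortex. CA1 is known for its part in spatial memory and for its sensitivity to ischaemia and to tau pathology. VEGFC acts on the receptors Flt4 and Kdr, found mainly on endothelial cells, with the neuropilins Nrp1 and Nrp2 as co-receptors. Neurons of the hippocampus are known to carry neuropilins, where they also bind semaphorins that guide axons.

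Excitatory neuron 1 gave 2292349 to 2810851 UMIs per library after summing its nuclei. The UMI, a unique molecular identifier, counts 1 captured RNA molecule. The cluster held 425 nuclei in sham GFP right, 646 in sham VEGFC right, 479 in TBI GFP right, 437 in TBI VEGFC right, 493 in TBI GFP left and 304 in TBI VEGFC left. TBI VEGFC left thus had the fewest nuclei, and it also had the deepest, with a median of 7423 UMIs per nucleus against 4213.5 in sham VEGFC right and 4716 to 5575 in the other 4 libraries. No cell barcode of the cluster occurred in 2 libraries, although 91 barcodes were shared among the 28650 nuclei. Levels are given below as CPM, the UMIs of a gene scaled to a common total of all UMIs summed over the nuclei of the cluster in that library. A second clustering of the neurons in the deposited annotation placed 2752 of the 2784 nuclei together again.

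The 4 marker genes of the cluster were seen in all 6 libraries at levels above the means of the granule-like and CA3-like clusters, and Fibcd1 and Gpr161 were also seen in Excitatory neuron 7. Fibcd1, a receptor for acetylated sugars, averaged 49.8 ± 6.95 CPM (SD, n = 6) in Excitatory neuron 1, against 1.98 in the dentate granule-like Excitatory neuron 2 and 0.905 in the CA3-like Excitatory neuron 4. Gpr161, a ciliary receptor that restrains hedgehog signalling, averaged 68.5 ± 2.41 CPM (SD, n = 6), against 2.37 and 6.55 in those clusters. Stac, an adaptor of calcium channels, averaged 109 ± 6.18 CPM (SD, n = 6), against 2.99 and 1.27. Shoc1, known for its part in meiotic crossing over, averaged 79.9 ± 43.2 CPM (SD, n = 6), against 1.24 and 3.1, and had the widest spread of the 4 between libraries. In Excitatory neuron 7 the means were 31.9 CPM for Fibcd1, 26.2 for Gpr161, 11.1 for Stac and 12.01 for Shoc1. These genes were part of what formed the cluster, so the contrast is a description with no test.

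The wider list of 10 CA1 markers includes the 4 above, so it is not a separate line of evidence. The summed level of the 10 was 1390 to 1543 CPM per library in Excitatory neuron 1. The means were 33.8 in Excitatory neuron 2, 142 in Excitatory neuron 4 and 405 in Excitatory neuron 7. Man1a, a mannosidase of the Golgi, averaged 628 CPM, Mpped1, a phosphoesterase, 187 CPM, and the POU factor gene Pou3f1 86.0 CPM. Wfs1, whose protein resides in the endoplasmic reticulum and marks dorsal CA1, averaged 26.4 CPM against 8.35 in Excitatory neuron 7, and Excitatory neuron 3, used below, carried the granule cell markers at a summed mean of 1801 CPM.

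**Figure D1:**
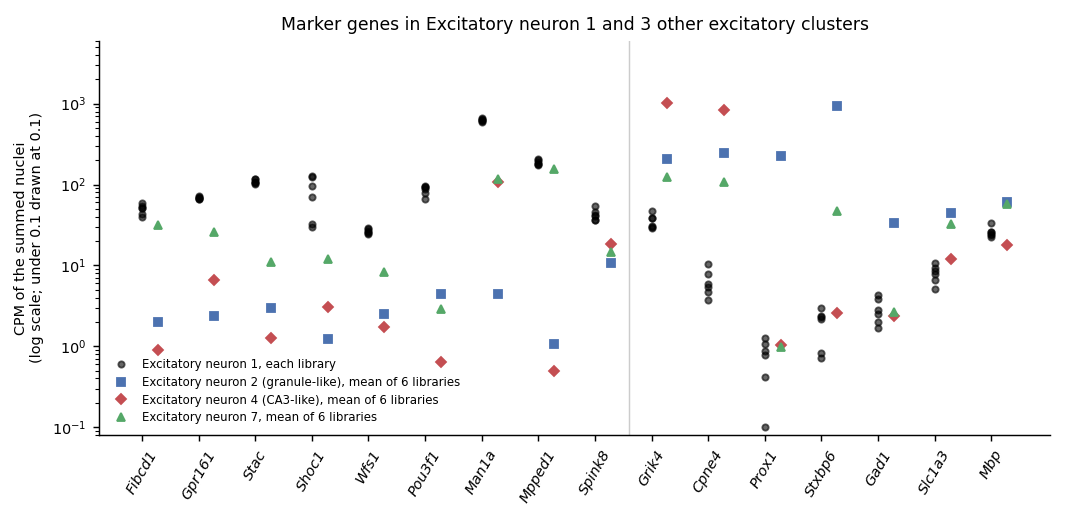
Levels in CPM (log axis) of 9 CA1 markers, left of the grey line, and of 7 markers of other cell types, right of it. Black points are the 6 libraries of Excitatory neuron 1, and coloured symbols are means of 6 libraries in Excitatory neurons 2, 4 and 7; values under 0.1 are drawn at 0.1. Of the CA1 markers drawn for Excitatory neuron 1, Shoc1 has the widest spread, 30.2 to 128 CPM, while Gpr161 stays between 65.7 and 72.1.

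Because nuclei differ in depth, the share of nuclei with a marker was also taken after thinning each nucleus to 2000 UMIs, which left out 35 nuclei of the cluster, 396 of Excitatory neuron 2 and 30 of Excitatory neuron 4. Fibcd1 was then seen in 9.86% of Excitatory neuron 1 nuclei, 0.602% of Excitatory neuron 2 and 0.193% of Excitatory neuron 4. Before thinning, the shares were 22.1%, 0.665% and 0.563%, and 0.442% in oligodendrocytes, which should lack the gene. Median depths were 5112.5 UMIs in the cluster and 1307 in oligodendrocytes. Man1a was seen in 64.5% of thinned Excitatory neuron 1 nuclei against 0.648% and 17.6% in Excitatory neurons 2 and 4. At this depth a marker such as Fibcd1 missed most nuclei of its own cluster.

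The genes that most set the cluster apart from Excitatory neurons 2, 3 and 4 were ranked by the ratio to the highest of the 3, among genes at 20 CPM or more in every library. Among those reported here were Folh1, a glutamate-releasing peptidase, at 39.8 times the highest of them, Stac at 36.6 and Galntl6, of the mucin-type glycosyltransferase family, at 31.3. Adgrl2, the latrophilin that places synapses on CA1 dendrites, stood at 30.9 and the heparan sulfate proteoglycan Gpc5 at 29.5. Mpped1, Fnbp1l, Shoc1, Cdh6, Egfl6 and Efcab6 were also among the leading 12, at 19.8 to 26.2. The ranking does not use Excitatory neuron 7, where Fnbp1l averaged 95.9 CPM against 68.5 in Excitatory neuron 1, Efcab6 38.3 against 26.7 and Mpped1 156 against 187. Over all nuclei, Gpc5 averaged 877 CPM outside the cluster and 726 within it.

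Markers of other cell types were low in the cluster but not all absent. The 6 CA3 markers summed to 86.3 to 116 CPM per library, against a mean of 2316 in Excitatory neuron 4. The 8 granule cell markers summed to 61.1 to 89.0 CPM, against a mean of 2576 in Excitatory neuron 2. Within Excitatory neuron 1 most of the granule cell sum came from Trpc6 and Dock10, and Prox1, the defining granule cell factor, averaged 0.735 CPM. The astrocyte list summed to 62.2 to 87.4 CPM, the oligodendrocyte list to 82.9 to 120 CPM, the microglia list to 104 to 167 CPM and the interneuron list to 39.0 to 74.0 CPM. Choroid plexus markers summed to 137 to 286 CPM, most of it the secreted carrier transcript Ttr at 119 to 268 CPM. The fibroblast list stayed at 1.07 to 6.11 CPM, and its collagen gene Col3a1 was at 0 in all 6 libraries.

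Nuclei within the cluster differed in genes known to vary with position in CA1. Calb1, the calcium buffer of superficial CA1 cells, was seen in 5.46% to 9% of thinned nuclei per library, and Ndst4, a sulfotransferase listed as a deep-layer marker, in 25.7% to 37.4%. Of the 191 thinned nuclei with Calb1, 14.7% also had Ndst4, against 34.3% of the 2558 nuclei without Calb1. The 5 ventral CA1 markers summed to 133 to 182 CPM in Excitatory neuron 1, against a mean of 947 in Excitatory neuron 7. Of these, the proteoglycan gene Dcn averaged 8.25 CPM in Excitatory neuron 1 and 233 in Excitatory neuron 7, and the serotonin receptor gene Htr2c 23.4 and 198. The 3 dorsal markers Wfs1, Spink8 and Lefty1 ran the other way, summing to 84.7 to 104 CPM in Excitatory neuron 1 against 25.2 in Excitatory neuron 7. Within Excitatory neuron 1, 142 thinned nuclei had Wfs1. Of these, 2.82% also had Dcn and 7.04% Htr2c, against 1.30% and 4.03% of the 2607 without Wfs1. Of the 38 thinned nuclei with Dcn, 15.8% had Htr2c, against 4.02% of the 2711 without Dcn. Within the cluster Dcn and Htr2c were thus not rarer in nuclei with Wfs1. These values, within the cluster and against Excitatory neuron 7, are descriptions and carry no test.

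The first comparison asked whether the cluster's share of nuclei moved with the vector. Excitatory neuron 1 made up 9.86% of nuclei in sham GFP right (exact Clopper-Pearson 95% interval 8.98 to 10.8) and 10.8% in sham VEGFC right (9.99 to 11.6). It made up 9.68% in TBI GFP right (8.87 to 10.5) and 10.2% in TBI VEGFC right (9.31 to 11.2). In the left hippocampus it made up 9.08% with GFP (8.33 to 9.88) and 8.27% with VEGFC (7.40 to 9.21). The intervals, which cover counting error only, overlapped within each context. VEGFC over GFP gave log2 ratios of 0.13 (sham right), 0.08 (TBI right) and -0.14 (TBI left). Their mean was 0.02, with p = 1 in an exact permutation test by two-sided sign flips, where 0.25 is the smallest that 3 contexts allow. Leaving out 1 context at a time moved the mean between -0.03 and 0.10. Measured against excitatory nuclei alone, the mean was -0.01 (exact permutation p = 0.75), and against Excitatory neurons 1 to 4 it was -0.08 (exact permutation p = 0.5). Both differ in sign from the share of all nuclei.

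**Figure D2:**
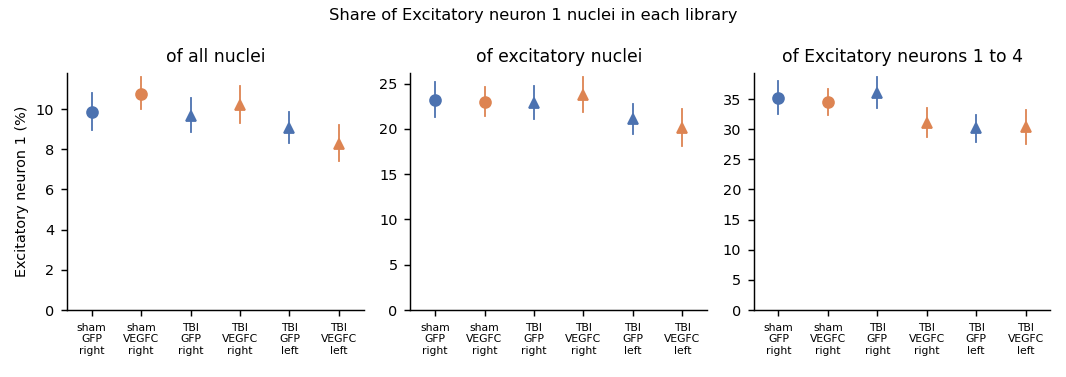
Share in percent (vertical axis, from 0) of Excitatory neuron 1 among all nuclei, among excitatory nuclei and among Excitatory neurons 1 to 4, for each library. Blue is GFP, orange is VEGFC, circles are sham, triangles are TBI, and bars are exact 95% binomial intervals; the share of all nuclei lies between 8.27% and 10.8%.

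The second comparison was TBI right against sham right, over both vectors. In CA1-like neurons the largest change was in Shoc1, one of the cluster's own markers, which rose by 1.65 on the log2 scale, while the clock repressor Ciart fell by more than 1 on the log2 scale. Other genes that rose were Ulk4, Slc2a9, Pard3, Prrt1 and Col11a1. The adhesion genes Lingo2 and Cntn5 fell. In all, 14 of 12404 genes tested passed the threshold (0.113%), 11 higher and 3 lower after TBI, by edgeR's quasi-likelihood test at an adjusted p of 0.05. Of the 14, 5 are gene models with clone names and are not named.

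Shoc1 (chr4:59041984-59138983) stood at 32.2 CPM in sham GFP right and 30.2 in sham VEGFC right. It stood at 69.4 CPM in TBI GFP right, 123 in TBI VEGFC right, 96.3 in TBI GFP left and 128 in TBI VEGFC left. All 4 injured libraries, the left ones included, lay above both sham libraries. The log2 difference of TBI right from sham right was 1.65 ± 0.16 (SE, edgeR adjusted p = 1.2e-08), higher in both pairs of libraries. It was 1.11 in the GFP pair and 2.02 in the VEGFC pair. After thinning to 2000 UMIs, Shoc1 was seen in 5% and 4.52% of nuclei in the sham libraries and in 9.62% to 19.1% in the injured ones. In Excitatory neuron 2, with a median of 3033 UMIs before thinning, the thinned share was 0.324%. Shoc1 passed the threshold in 15 of 15 alternative fits, with log2 differences of 1.23 to 1.98. The other 3 markers did not pass, with differences of 0.05 for Gpr161, 0.21 for Stac and -0.37 for Fibcd1 (edgeR adjusted p = 0.98, 0.86 and 0.70). In Excitatory neurons 2, 3 and 4 Shoc1 was too low to test, at means of 1.24, 2.24 and 3.1 CPM. Excitatory neuron 7 was not tested, and Shoc1 had 1 to 19 UMIs per library there. Its levels in that cluster were 2.75 and 6.07 CPM in sham with GFP and VEGFC. They were 4.91 and 17.8 CPM in TBI right and 3.71 and 36.8 in TBI left.

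Ulk4, which codes for a kinase-like protein of cilia and neuronal development (chr9:120955351-121277197), stood at 47.0 and 45.9 CPM in sham GFP right and sham VEGFC right. It stood at 85.9 and 78.4 CPM in TBI GFP right and TBI VEGFC right, and at 71.2 and 61.9 in TBI GFP left and TBI VEGFC left. No injured library reached down to the sham level. Ulk4 differed by 0.85 ± 0.13 (SE, edgeR adjusted p = 0.00078) on the log2 scale, and by 0.86 without TBI VEGFC right (adjusted p = 0.061). The values elsewhere were 0.93 ± 0.22 in Excitatory neuron 2, 1.13 ± 0.23 in Excitatory neuron 3 and 1.06 ± 0.25 in Excitatory neuron 4 (edgeR adjusted p = 0.02, 0.013 and 0.36). The gene overlaps Ctnnb1 in position. Strand was not considered, and how reads from their shared stretch were assigned was not tested. Among genes named below, Adamtsl1, Asic2, Map3k15 and Nnat also overlap another protein-coding gene, with the same limit. For Shoc1, placed by RefSeq, the overlapping entry is a clone-named model that may be the same gene.

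Slc2a9, a urate and sugar transporter (chr5:38349273-38503143), stood at 30.5 and 49.1 CPM in the sham libraries with GFP and VEGFC, at 57.9 and 73.3 in TBI right and at 65.3 and 62.8 in TBI left. The injured libraries were all higher than the sham ones. Slc2a9 differed by 0.74 ± 0.15 (SE, edgeR adjusted p = 0.028), and did not pass without sham GFP right (0.54, adjusted p = 0.23), TBI GFP right (0.77, adjusted p = 0.14) or TBI VEGFC right (0.72, adjusted p = 0.71).

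Pard3, a scaffold of cell polarity (chr8:127063893-127612286), stood at 70.7 and 59.1 CPM in sham with GFP and VEGFC. It stood at 85.9 and 123 CPM in TBI right and at 82.5 and 127 in TBI left. Pard3 differed by 0.71 ± 0.15 (SE, edgeR adjusted p = 0.028). Most of it came from the VEGFC pair, at 1.05 against 0.28 with GFP, and without sham VEGFC right it was 0.25 (adjusted p = 0.80). Prrt1, a protein that travels with AMPA receptors (chr17:34629533-34633126), stood at 111 and 106 CPM in sham, at 141 and 174 in TBI right and at 147 and 168 in TBI left. Its log2 difference was 0.56 ± 0.12 (SE, edgeR adjusted p = 0.028), 0.37 without sham VEGFC right (adjusted p = 0.54), and 0.47 to 0.51 in Excitatory neurons 2 to 4, where it did not pass. Col11a1, a chain of fibrillar collagen (chr3:114030540-114220718), stood at 241 CPM in both sham libraries, at 286 and 385 in TBI right and at 268 and 328 in TBI left. Its log2 difference was 0.49 ± 0.11 (SE, edgeR adjusted p = 0.035), and 0.28 without sham VEGFC right (adjusted p = 0.63). For Pard3, Prrt1 and Col11a1 the 2 injured libraries with VEGFC were the highest of the 6. In CA3-like Excitatory neuron 4 Pard3 stood at 33.4 and 39.9 CPM in sham with GFP and VEGFC. It stood there at 36.8 and 64.3 CPM in TBI right and at 30.7 and 73.9 in TBI left, so this pattern was shared. Col11a1 stood there at 304 and 280 CPM in sham, 276 and 501 in TBI right and 204 and 280 in TBI left.

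Ciart codes for a repressor that acts on the clock activators Clock and Arntl (chr3:95878503-95882251). It stood at 33.0 CPM in sham GFP right and 29.2 in sham VEGFC right, and at 15.0 and 13.4 in TBI GFP right and TBI VEGFC right. The left libraries had 17.6 and 13.5 CPM. The sham and injured libraries did not overlap, and the log2 difference was -1.10 ± 0.21 (SE, edgeR adjusted p = 0.014), -1.14 with GFP and -1.12 with VEGFC. Across the 6 libraries 306 UMIs of the gene were counted. Without any 1 of the 4 right libraries Ciart did not pass, at -1.15 to -1.06 (adjusted p = 0.057 to 0.35). In Excitatory neurons 2, 3 and 4 the difference was -0.02, -0.54 and -0.14, none past the threshold.

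The promoter of Ciart holds the E-box letters CACGTG, to which Clock and Arntl are known to bind, 3 times. The 250 bases before the RefSeq start of the gene (GRCm38.p6, chr3:95882229-95882478, minus strand) are printed here because Ciart was the one clock gene past the threshold, with the E-boxes in capitals.
Ciart promoter: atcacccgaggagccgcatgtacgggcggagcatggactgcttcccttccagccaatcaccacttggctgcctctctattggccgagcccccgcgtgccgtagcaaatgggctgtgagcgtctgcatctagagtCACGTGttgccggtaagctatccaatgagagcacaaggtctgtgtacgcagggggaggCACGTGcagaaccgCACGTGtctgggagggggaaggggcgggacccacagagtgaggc
The E-boxes begin at -116, -58 and -44 from the start. CACGTG reads the same on both strands, and it occurred in 6.02% of 32851 promoter windows of this length and at least 3 times in 0.0609% of them. Of the 14 named genes past the threshold for TBI or vector, 11 had a window, and 2 of these, Ciart and Cpsf4l, held the motif. A match of letters shows neither binding nor a cause.

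Of 17 clock genes tested, Ciart was the only one past the threshold after TBI. Arntl itself stood at 91.4 and 75.4 CPM in sham, at 97.4 and 104 in TBI right and at 90.5 and 96.0 in TBI left, a log2 difference of 0.30 ± 0.12 (edgeR adjusted p = 0.70). The 17 genes had a median of 0.00, beside 0.00 over all genes, with 9 above 0. The labels do not give the time of day at which tissue was taken, and its part in the Ciart result was not tested.

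Lingo2, a transmembrane protein with leucine-rich repeats (chr4:35706647-36951747), stood at 320 and 294 CPM in sham GFP right and sham VEGFC right. It stood at 201 and 195 CPM in TBI right and at 259 and 289 in TBI left. The 2 TBI right libraries were the lowest of the 6, and the left ones lay between them and sham. Lingo2 differed by -0.60 ± 0.10 (SE, edgeR adjusted p = 0.0022), with -0.67 and -0.59 in the GFP and VEGFC pairs. It did not pass without TBI GFP right (-0.64, adjusted p = 0.17) or TBI VEGFC right (-0.57, adjusted p = 0.71). Cntn5, a contactin of axons and synapses (chr9:9660891-10904775), stood at 68.1 and 65.8 CPM in sham, at 46.0 and 34.7 in TBI right and at 45.6 and 44.1 in TBI left. Its log2 difference was -0.71 ± 0.15 (SE, edgeR adjusted p = 0.032), and it did not pass without any 1 of the 4 right libraries (adjusted p = 0.065 to 1.00). Both genes are far higher in granule-like Excitatory neuron 2, at means of 2783 and 875 CPM, where they differed by -0.01 and -0.02. In Excitatory neuron 3 Lingo2 differed by 0.14 ± 0.07 (edgeR adjusted p = 0.81), while Cntn5 fell by 0.36 ± 0.08 on the log2 scale (edgeR adjusted p = 0.037). The summed granule cell markers within Excitatory neuron 1 were 86.3 and 83.2 CPM in sham and 89.0 and 85.1 in TBI right. Most of that sum is Trpc6 and Dock10, and the part of granule cell RNA in the Lingo2 and Cntn5 results was not tested.

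Other genes fell without passing the threshold and were taken by the smallest p. Lgmn, a lysosomal protease, had -1.08 ± 0.25 and the adhesion gene Sdk1 -0.61 ± 0.15 (edgeR adjusted p = 0.075 and 0.15). Plppr1 had -0.81 ± 0.20, the channel-like Ano3 -0.39 ± 0.10 and the neuregulin gene Nrg1 -0.35 ± 0.10 (edgeR adjusted p = 0.16, 0.20 and 0.30). Nrg1 did pass in Excitatory neuron 3, at -0.56 ± 0.11 (edgeR adjusted p = 0.0063).

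The TBI count rested on few libraries. It was 49 without sham GFP right, 9 without TBI GFP right and 3 without TBI VEGFC right, and 2 with DESeq2 and with equal numbers of nuclei. Without TBI VEGFC right, which leaves the GFP pair alone for the right side, Shoc1 was the one named gene that still passed.

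**Figure D3:**
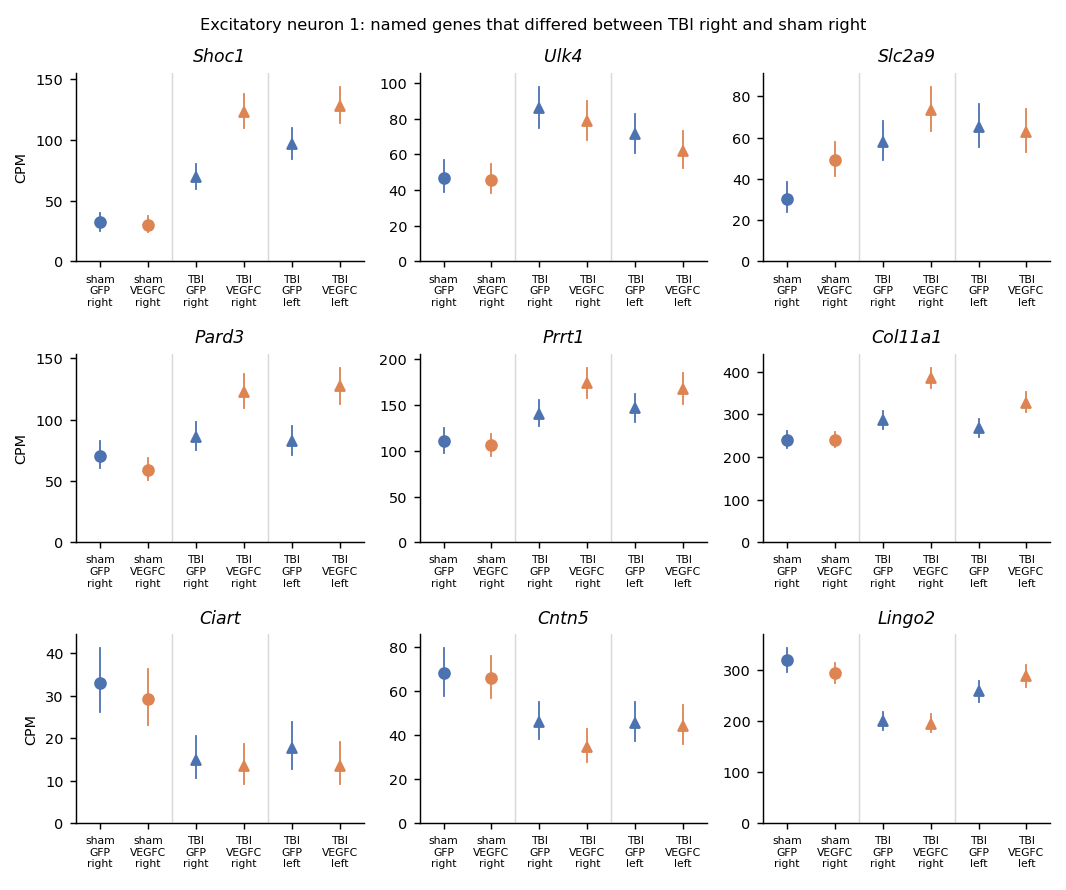
CPM (vertical axis, from 0) in each library of Excitatory neuron 1 for the 9 named genes past the threshold for TBI right against sham right. Circles are sham, triangles are TBI, blue is GFP, orange is VEGFC, and bars are exact 95% Poisson intervals for counting error; Shoc1 goes from 30.2 to 128 CPM and Ciart from 33.0 to 13.4.

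The third comparison was VEGFC against GFP over the 3 contexts. In CA1-like neurons Kirrel3, Zfpm2, Trpm3 and Cpsf4l rose with VEGFC and the zinc finger gene Zfp46 fell. In all, 5 of 12404 genes passed the threshold (0.0403%), 4 higher and 1 lower, by edgeR's quasi-likelihood test at an adjusted p of 0.05. Kirrel3, Zfpm2 and Trpm3 are among the genes that granule-like neurons carry at far higher levels, so granule cell RNA in the cluster is given beside them.

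Kirrel3, a synaptic adhesion molecule of the immunoglobulin family (chr9:34485894-35036716), stood at 95.2 CPM in sham GFP right and 108 in sham VEGFC right. It stood at 91.3 and 174 CPM in TBI right with GFP and VEGFC, and at 131 and 194 in TBI left. The 2 injured VEGFC libraries were the highest, while sham VEGFC right lay below TBI GFP left, so the vectors overlap across contexts. The log2 difference was 0.60 ± 0.10 (SE, edgeR adjusted p = 0.0077), higher in 3 of 3 contexts at 0.18, 0.93 and 0.57. Whether it was larger after TBI has 1 library per combination and was not tested. Without TBI GFP right or TBI VEGFC right it was 0.42 (adjusted p = 1.00). After thinning, Kirrel3 was seen in 11.9% to 14.0% of nuclei in the GFP libraries, in 13.6% in sham VEGFC right and in 18.2% and 20% in the injured VEGFC libraries.

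Zfpm2, a partner of GATA factors (chr15:40655035-41104592), stood at 67.7 and 94.3 CPM in sham with GFP and VEGFC, at 67.9 and 106 in TBI right and at 66.6 and 89.0 in TBI left. All 3 VEGFC libraries lay above all 3 GFP libraries. The log2 difference was 0.55 ± 0.10 (SE, edgeR adjusted p = 0.02). Without either TBI right library it was 0.48 (adjusted p = 1.00). Excitatory neuron 2 had Zfpm2 at a mean of 1007 CPM and Kirrel3 at 1385 CPM, with vector differences of 0.03 ± 0.07 and 0.16 ± 0.07. The summed granule cell markers within Excitatory neuron 1 were 86.3, 89.0 and 72.9 CPM in the GFP libraries of sham right, TBI right and TBI left, and 83.2, 85.1 and 61.1 in the VEGFC libraries. Prox1 stood at 0 to 1.26 CPM per library. The part of granule cell RNA in the Kirrel3, Zfpm2 and Trpm3 results was not tested.

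Trpm3, a cation channel opened by heat and by neurosteroids (chr19:22139046-22995410), stood at 16.1 and 31.3 CPM in sham, at 20.7 and 28.4 in TBI right and at 28.1 and 51.0 in TBI left. Trpm3 differed by 0.79 ± 0.16 (SE, edgeR adjusted p = 0.04). It rested on 1 nucleus of TBI VEGFC left, which held 52 of the 117 UMIs there and 11.9% of all Trpm3 UMIs in the cluster. Without that nucleus the library stood at 28.5 CPM and the difference was 0.49 (adjusted p = 0.80). Trpm3 also missed the threshold without any 1 of the 6 libraries. Excitatory neuron 2 had the gene at a mean of 1329 CPM.

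Cpsf4l, which resembles a factor of messenger RNA 3' end formation (chr11:113698172-113710017), stood at 8.04 and 16.0 CPM in sham, at 15.0 and 29.2 in TBI right and at 11.3 and 21.4 in TBI left. Each VEGFC library was above its GFP partner, by log2 ratios of 0.99, 0.96 and 0.92, and the log2 difference was 0.98 ± 0.20 (SE, edgeR adjusted p = 0.04). Cpsf4l had 0.29 ± 0.21, 0.72 ± 0.23 and 1.31 ± 0.29 in Excitatory neurons 2, 3 and 4 (edgeR adjusted p = 0.95, 0.36 and 0.38). Its rise in CA3-like Excitatory neuron 4 was thus not smaller than in Excitatory neuron 1. Zfp46, a zinc finger protein (chr4:136284683-136293942), stood at 33.4 and 18.9 CPM in sham, at 26.8 and 8.67 in TBI right and at 22.2 and 8.29 in TBI left. All 3 VEGFC libraries lay below all 3 GFP libraries, and the log2 difference was -1.19 ± 0.19 (SE, edgeR adjusted p = 0.0056). In Excitatory neurons 2, 3 and 4 Zfp46 had -0.43 ± 0.19, -0.86 ± 0.19 and -1.16 ± 0.30 (edgeR adjusted p = 0.81, 0.05 and 0.61). Without either TBI right library Zfp46 had -1.02 (adjusted p = 0.18 and 0.16) and Cpsf4l 0.98 and 0.99 (adjusted p = 0.77 and 0.90). Cpsf4l also missed without TBI GFP left or TBI VEGFC left (adjusted p = 0.14 and 0.15), and without the nucleus richest in Trpm3 (adjusted p = 0.061).

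**Figure D4:**
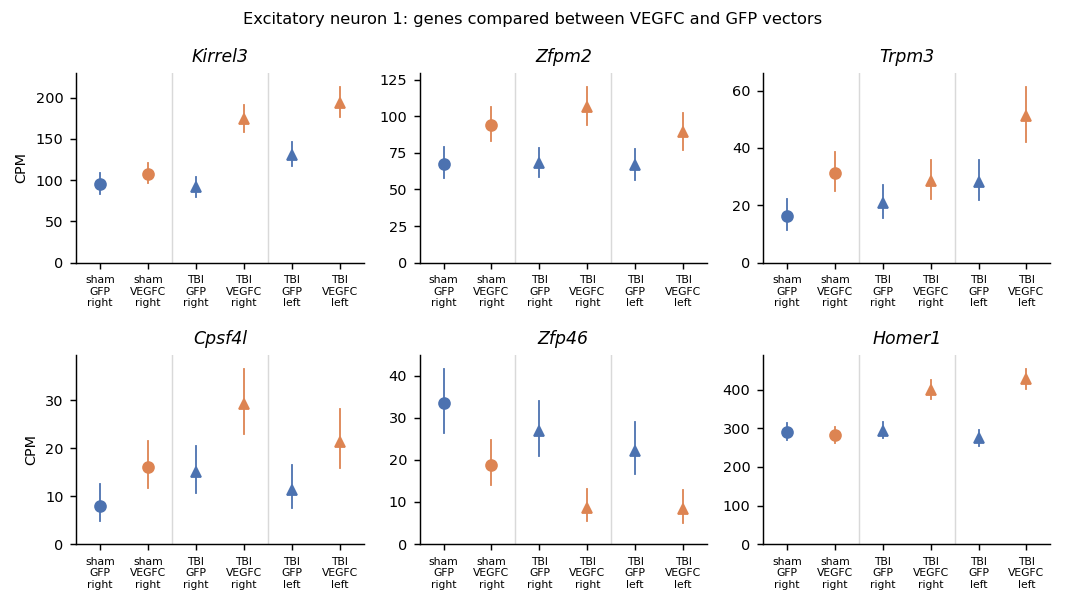
CPM (vertical axis, from 0) in each library of Excitatory neuron 1 for the 5 genes past the threshold for VEGFC against GFP and for Homer1, which did not pass. Circles are sham, triangles are TBI, blue is GFP, orange is VEGFC, and bars are exact 95% Poisson intervals for counting error; in Zfpm2 and Zfp46 the orange and blue points do not overlap, and in Homer1 the injured VEGFC libraries alone stand at 400 and 428 CPM.

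The genes nearest to the threshold without passing it included Cdh4, a cadherin, at 1.03 ± 0.22 and Shisa9, an auxiliary protein of AMPA receptors, at 0.53 ± 0.13 (edgeR adjusted p = 0.063 and 0.21). Cntnap5b, of the contactin-associated proteins, had 0.39 ± 0.10, the RNA-binding Pcbp2 0.35 ± 0.09 and the netrin-G gene Ntng1 0.41 ± 0.10 (edgeR adjusted p = 0.21, 0.21 and 0.26). Homer1, a scaffold of the postsynaptic density that activity induces, stood at 292 and 283 CPM in sham, at 295 and 400 in TBI right and at 275 and 428 in TBI left. Its log2 difference was 0.38 ± 0.09 (SE, edgeR adjusted p = 0.21). On the lower side Arglu1, Ablim1, Npas1, Rbmxl1 and Myef2 had -0.31, -0.64, -0.77, -0.69 and -0.32 (edgeR adjusted p = 0.21 to 0.41). Npas1, a repressor of transcription, passed in Excitatory neuron 2 at -1.41 ± 0.30 (edgeR adjusted p = 0.0066), and Arglu1, a splicing factor, in Excitatory neuron 3 at -0.33 ± 0.07 (edgeR adjusted p = 0.037).

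The vector count changed with the libraries used. It was 61 without sham GFP right and 60 without sham VEGFC right, where the contrast rests on the 2 TBI contexts, and 4 of the 5 genes above were among them. It was 0 without TBI GFP right or TBI VEGFC right and 3 without TBI GFP left or TBI VEGFC left, and DESeq2 called 0, with 53 genes at an unadjusted p under 0.05.

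Vegfc and the receptor genes Flt4 and Kdr were barely seen in the cluster. With GFP, Vegfc was counted 17 times in the sham library, 17 in the injured right hippocampus and 13 in the left. With VEGFC it was counted 20, 8 and 12 times, and over all libraries its level was 3.15 to 7.19 CPM. The vectors overlapped, with a log2 difference of -0.29 ± 0.34 (edgeR adjusted p = 0.96). Whether RNA of the vector would be counted as Vegfc was not tested. Flt4 had 3 UMIs, Kdr 1 and Flt1 22 over the 6 libraries, and all 3 were too low to test. The co-receptor Nrp1 stood at 171 to 203 CPM and Nrp2 at 37.7 to 52.0 CPM. Neither passed in any comparison, and the vector differences were -0.02 ± 0.09 and 0.19 ± 0.13 (edgeR adjusted p = 1.00 and 0.92).

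Mapt, the mouse gene for tau, stood at 256 and 232 CPM in sham with GFP and VEGFC, at 225 and 260 in TBI right and at 241 and 261 in TBI left. The libraries overlapped, with a TBI difference of 0.01 ± 0.10 and a vector difference of 0.09 ± 0.09 (edgeR adjusted p = 0.99 and 0.95). How far reads of the human transgene count as Mapt was not tested. Among 28 genes of tau, its kinases and other microtubule proteins, none passed in any comparison, with a median of -0.01 after TBI and 0.05 with VEGFC. Map6, which stabilises microtubules, came nearest after TBI. It stood at 32.6 and 34.2 CPM in sham, at 47.9 and 55.2 in TBI right and at 43.1 and 46.2 in TBI left, a difference of 0.66 ± 0.16 (edgeR adjusted p = 0.15).

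Lists of genes for the functions of a pyramidal neuron were examined as a description, 25 in all. Of all 12404 genes, 6221 were above 0 after TBI and 6176 with VEGFC, with medians of 0.00 in both. Only 2 of the 25 lists had a member past the threshold, synaptic adhesion with Kirrel3 (vector) and the clock with Ciart (TBI). The 13 tested AMPA receptor subunits and auxiliaries had medians of 0.06 with VEGFC and -0.02 after TBI. The 17 NMDA, kainate and metabotropic receptor genes had 0.09 and -0.02, with 13 above 0 in the former. For 36 potassium and HCN channel genes, 24 were above 0 with VEGFC, at a median of 0.07. Of 36 postsynaptic genes, 22 were above 0 with VEGFC and 23 after TBI, at medians of 0.04 and 0.06.

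Neurotrophin genes were the one list with every tested member above 0 with VEGFC, 7 of 7 at a median of 0.26, and none passed. Bdnf, the main activity-dependent neurotrophin, stood at 40.6 and 48.0 CPM in sham with GFP and VEGFC, at 36.1 and 47.7 in TBI right and at 45.2 and 61.1 in TBI left. Its difference was 0.39 ± 0.13 (edgeR adjusted p = 0.58). Its receptor Ntrk2 had 0.22 ± 0.08 and the sortilin-related Sorcs3 0.26 ± 0.08 (edgeR adjusted p = 0.78 and 0.51). Of 27 immediate early genes, which neuronal activity induces, 18 were above 0 with VEGFC and 16 after TBI, at medians of 0.09 and 0.06. Npas4, the activity-dependent factor, had 0.57 ± 0.22 after TBI (edgeR adjusted p = 0.66).

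Metabolic and stress lists had no member past the threshold. The 11 transcripts of the mitochondrial genome were all above 0 after TBI, at a median of 0.14, while 16 of 48 nuclear genes of oxidative phosphorylation were, at -0.08. Mitochondrial transcripts in nuclei come from outside the nucleus, and their share of UMIs, a median of 0.0740% to 0.109% per library, was capped under 1% in the deposited nuclei. Of 20 cholesterol synthesis genes, 5 were above 0 after TBI, at a median of -0.20. Of 15 interferon and antigen presentation genes, 3 were, at -0.23. The 14 heat shock genes had 0.11, the 21 genes of the unfolded protein response 0.08 and the 13 genes of axon injury -0.08. Of 11 glucocorticoid response genes 9 were above 0, at a median of 0.17.

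The fourth comparison was TBI left against TBI right, which shares the TBI right libraries with the TBI comparison. No gene of 12404 passed the threshold (0%), with 427 genes at an unadjusted p under 0.05 by edgeR's quasi-likelihood test, and DESeq2 called 0, with 25. Lingo2 had 0.46 ± 0.10 (left minus right), and its levels are given above (edgeR adjusted p = 0.32). Mctp1, a calcium sensor of vesicle membranes, had 0.66 ± 0.15, Ntng1 0.53 ± 0.12, and the postsynaptic adhesion gene Lrrtm4 0.54 ± 0.13 (edgeR adjusted p = 0.32, 0.32 and 0.36). On the lower side Trak1, an adaptor of mitochondrial transport, had -0.44 ± 0.13 and Hdac8, a deacetylase, -0.42 ± 0.13 (edgeR adjusted p = 0.82 and 0.90). The 11 transcripts of the mitochondrial genome were all above 0 on the left, at a median of 0.25 and with 5 at an unadjusted p under 0.05, and their part in the other differences was not tested. The count was 2 without TBI GFP left or TBI VEGFC right and 1 without TBI VEGFC left.

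The remaining comparisons tested whether CA1-like neurons differed in their response from other neurons of the same libraries. Against CA3-like Excitatory neuron 4, 4 of 12809 genes differed in the vector response (0.0312%) and 4 in the TBI response (0.0312%), by edgeR's quasi-likelihood test with the library as a block. Against granule-like Excitatory neuron 2, 10 of 12791 genes differed in the vector response (0.0782%) and 6 in the TBI response (0.0469%). All 10 had the higher response in CA1-like neurons. Positive values below mean a higher response in CA1-like neurons.

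For TBI, Lingo2 differed from both clusters, by -0.58 ± 0.11 from the CA3-like cluster and by -0.58 ± 0.09 from the granule-like one (edgeR adjusted p = 0.0012 and 6.1e-06). In the CA3-like cluster Lingo2 stood at 450 and 475 CPM in sham and at 404 and 492 in TBI right, so it had no common direction there. The granule-like difference passed the threshold in 8 of 8 alternative fits, and the CA3-like one was -0.45 without TBI VEGFC right (adjusted p = 0.97). Pard3 and Cntn5 also differed from the granule-like cluster, by 0.70 ± 0.14 and -0.68 ± 0.15 (edgeR adjusted p = 0.008 and 0.018). Neither was compared with Excitatory neuron 3, which also carries granule cell markers and where Cntn5 fell too, as given above.

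Doc2b, a calcium sensor of spontaneous transmitter release, differed from the granule-like cluster by -1.26 ± 0.24 (edgeR adjusted p = 0.0019). It stood at 57.6, 48.4, 35.7 and 41.4 CPM in sham GFP, sham VEGFC, TBI GFP and TBI VEGFC right in CA1-like neurons. In granule-like neurons it stood at 44.6, 28.3, 51.2 and 77.1 CPM, and it passed there alone at 0.84 ± 0.20 (edgeR adjusted p = 0.021). Nnat, an imprinted membrane protein, differed from the CA3-like cluster by -0.81 ± 0.15 (edgeR adjusted p = 0.00075). In CA1-like neurons it stood at 97.8, 85.0, 59.1 and 92.2 CPM in those 4 libraries, and in CA3-like neurons at 172, 273, 340 and 308. Sham GFP right was the lowest CA3-like library, and without it the difference was -0.28 (adjusted p = 0.99). Without TBI GFP right it was -0.26 (adjusted p = 1.00).

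Adamtsl1, of the extracellular matrix, differed from the CA3-like cluster by -0.83 ± 0.19 (edgeR adjusted p = 0.032), and Map3k15, a kinase gene and CA2 marker, by 5.25 ± 1.13 (edgeR adjusted p = 0.014). Map3k15 was counted 1, 1, 5 and 14 times in CA1-like neurons in sham GFP, sham VEGFC, TBI GFP and TBI VEGFC right, and 11, 21, 12 and 1 times in CA3-like neurons. With so few UMIs the size of this difference is poorly set. It was 2.57 without sham VEGFC right (adjusted p = 0.99) and 3.68 without TBI VEGFC right (adjusted p = 1.00).

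For the vector, the adhesion genes Kirrel3, Cntnap5b and Ntng1 and the factor Zfpm2 had a higher response in CA1-like than in granule-like neurons. The differences were 0.46 ± 0.09, 0.51 ± 0.10, 0.52 ± 0.10 and 0.53 ± 0.10 (edgeR adjusted p = 0.0041 each). In the granule-like cluster alone these genes had vector differences of 0.16, -0.11, -0.10 and 0.03, none past the threshold. The level of each was far higher there. Cntnap5b averaged 504 CPM in granule-like and 99.3 in CA1-like neurons, and Ntng1 1043 and 80.6. The part of granule cell RNA in these results was not tested. Cntnap5b also differed from the CA3-like cluster, by 0.83 ± 0.17 (edgeR adjusted p = 0.0052). It stood at 77.9 and 96.8 CPM in sham, 87.4 and 117 in TBI right and 95.9 and 121 in TBI left in CA1-like neurons, higher with VEGFC in each context. In CA3-like neurons it stood at 92.1 and 63.9, 86.8 and 63.4, and 59.5 and 43.7 CPM, lower with VEGFC in each. The CA3-like difference of Cntnap5b missed the threshold without any 1 of the 6 libraries (adjusted p = 0.095 to 0.46), with values of 0.81 to 0.85.

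March1, a ubiquitin ligase that turns over membrane proteins, differed from the granule-like cluster by 0.73 ± 0.12 (edgeR adjusted p = 0.00023). In CA1-like neurons it stood at 930 to 1197 CPM and did not pass, while in granule-like neurons it fell by 0.80 on the log2 scale (edgeR adjusted p = 4.9e-07). Sham GFP right was the highest granule-like library at 190 CPM, against 61.1 to 98.7 in the other 5, and without it the difference was 0.45 (adjusted p = 0.23). Egfem1, a secreted protein with EGF-like domains, differed from the CA3-like cluster by 0.47 ± 0.09, the acid-sensing channel gene Asic2 by 0.42 ± 0.09 and the sodium-activated potassium channel gene Kcnt2 by -0.45 ± 0.10 (edgeR adjusted p = 0.00057, 0.013 and 0.024). In CA1-like neurons Egfem1 and Asic2 had vector differences of -0.05 and 0.13, against -0.54 and -0.31 in CA3-like ones. In CA3-like TBI left Asic2 stood at 241 CPM with either vector. In CA1-like neurons Kcnt2 stood at 234 and 174 CPM in sham with GFP and VEGFC. It stood at 199 and 182 CPM in TBI right and at 236 and 175 in TBI left. In CA3-like neurons it stood at 330 and 356, 356 and 375, and 325 and 363 CPM. Of 8 alternative fits, Egfem1 passed the threshold in 6, Asic2 in 4 and Kcnt2 in 1.

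**Figure D5:**
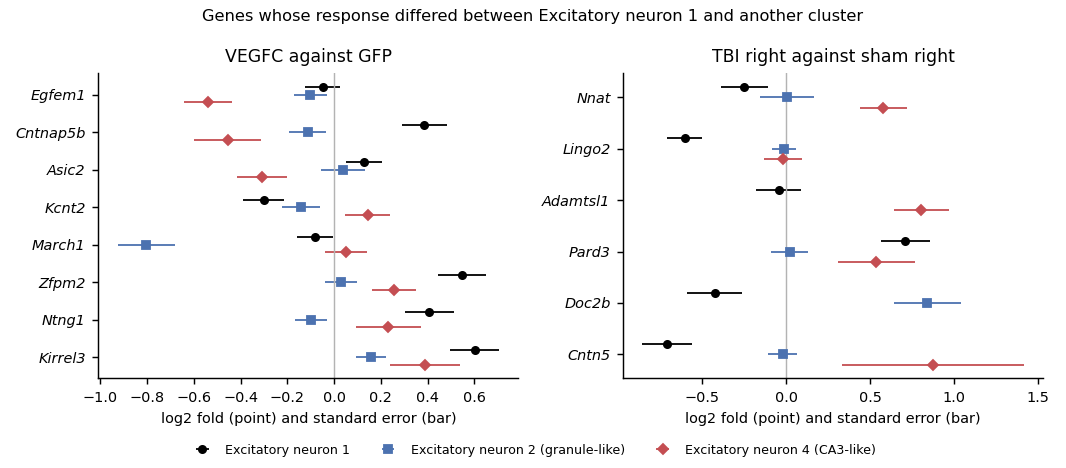
Log2 differences (points) with standard errors (bars) of VEGFC against GFP, left, and of TBI right against sham right, right, in Excitatory neurons 1, 2 and 4, for genes described in the text whose response differed between Excitatory neuron 1 and one of the others. Clusters in which a gene was too low to test have no point, and Map3k15 is not drawn because its sums were too low to fit in Excitatory neuron 1 alone; Lingo2 stands at -0.60 in Excitatory neuron 1 and near 0 in the other clusters after TBI.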

How the data were processed

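Nuclear RNA of 6 libraries was captured on the 10x Genomics platform, according to the labels. Cell Ranger 7.0.1, Scanpy and mm10 are named in the submitters' processing notes, without settings. Values in the deposited matrix are UMI counts, not normalized. The deposited metadata give library, cluster, total counts, the percent of mitochondrial and ribosomal UMIs, and a doublet score, none above 0.099; all nuclei were kept and no doublet caller was run.

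Counts were summed over the nuclei of Excitatory neuron 1 in each library, at 2292349 to 2810851 UMIs, and tested with edgeR 4.0.16 (quasi-likelihood, filterByExpr, TMM) in R 4.3.3 with terms for context and vector, leaving 2 residual degrees of freedom beside a median of 35.16 prior ones. SE is the log2 difference over the square root of F. P-values were adjusted over all genes tested (Benjamini-Hochberg). Responses were compared with Excitatory neurons 2 and 4 in a joint fit with the library as a block. Intervals cover counting error only. The fits were tested on simulated data.

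Named were the 4 markers, Mapt, Vegfc and its receptors, and up to 12 called genes a direction that averaged 10 CPM or more and had 1 sign in each pair of libraries, or the 5 with the smallest p where fewer than 5 passed; up to 5 a direction per difference between clusters; and list members past the threshold. Homer1, Bdnf, Ntrk2, Sorcs3, Map6, Arntl and Npas4 were named after their values were seen. Clone-named models were counted only, and some genes chosen by the rule are not reported here. The cluster, lists and tests were chosen with earlier results of these data known. Alternatives were RLE factors, library totals, no filter, DESeq2 1.42.0, at least 2000 UMIs, equal numbers of nuclei, a doublet score of at most 0.05 and each library left out. Coordinates are mm10 (GENCODE; RefSeq for Shoc1).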

Additional observations from a re-analysis of the deposited data

Results flagged for a closer look

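Each of the following differed between Excitatory neuron 1 and another excitatory cluster by a test of the difference itself (edgeR's quasi-likelihood test with the library as a block). Values are the response in Excitatory neuron 1 minus that in the other cluster, on the log2 scale, and the levels behind most of them are in the report. For VEGFC against GFP and the CA3-like cluster they were Egfem1 (0.47), Cntnap5b (0.83), Asic2 (0.42) and Kcnt2 (-0.45). For TBI right against sham right and the CA3-like cluster they were Map3k15 (5.25), Nnat (-0.81), Lingo2 (-0.58) and Adamtsl1 (-0.83). For VEGFC against GFP and the granule-like cluster they were March1 (0.73), Zfpm2 (0.53), Cntnap5b (0.51), Ntng1 (0.52) and Kirrel3 (0.46). For TBI right against sham right and the granule-like cluster they were Pard3 (0.70), Lingo2 (-0.58), Doc2b (-1.26) and Cntn5 (-0.68). Of these, Lingo2 against the granule-like cluster kept its call without each of the 6 libraries in turn.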

How the results depend on the processing

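The markers Fibcd1, Gpr161 and Stac, and Mapt, Vegfc and its receptors, were not followed under the alternatives. For vector, TBI and side the naming rule asked for the same sign in every pair of libraries. A turned sign was thus unlikely from the start in those comparisons. No gene that the rule chose for a comparison changed sign under any alternative. Of the values of such genes past the threshold, 121 of 162 kept their call with all libraries in and 102 of 192 with 1 library left out. The vector count of 5 was 0 with DESeq2, 1 with equal numbers of nuclei (304 per library) or library totals, 11 without a filter on low counts or with a doublet score of at most 0.05, and 0 to 61 with 1 library left out. Added after seeing the data, it was 9 by the second clustering and 3 without the Trpm3-rich nucleus. The TBI count of 14 was 2 with DESeq2 or equal numbers of nuclei, 7 with library totals and 3 to 49 with 1 library left out. The side count of 0 became 0 to 2. Differences from the CA3-like cluster numbered 1 to 5 (vector) and 2 to 8 (TBI) with 1 library left out, and from the granule-like cluster 2 to 37 and 1 to 18, and 10 for TBI without a filter. The mean log2 share ratio of 0.02 turned to -0.0112 among excitatory nuclei and -0.0788 among Excitatory neurons 1 to 4, and ran from -0.0292 to 0.102 with 1 library left out. Leaving out 1 library removes its whole context from the vector contrast, since each combination has 1 library. Other causes of these shifts were not tested. Groups share no replicate number; the vector contrast already compares libraries within each context. Genes with few UMIs, such as Map3k15, Flt4 and Kdr, are limited by depth.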
